A study of Mus musculus with 12 samples.

Results

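The genes described here are 10 genes of the ATF4 stress response and of protein folding in the endoplasmic reticulum (ER): Atf4, Atf3, Ddit3, Trib3, Asns, Chac1, Hspa5, Xbp1, Sec61b and Ero1b. They were chosen by name, with earlier results of these data known. Each was read from a probe set whose annotation names that gene alone. All 10 of 10 were measured, among 22180 genes of the arrays. The livers came from male C57BL/6 mice, 2 months old, whose Trp53 alleles are floxed (Trp53tm1Brn/J, p53 fl/fl), so every group carried the floxed alleles. An adenovirus was injected into the tail vein, and diets began 3 days later. The 4 groups of 3 arrays were Adeno-Cre fasted for 24 h, Adeno-Cre fed, Adeno-GFP fasted for 24 h and Adeno-GFP fed. Adeno-Cre expresses the recombinase that deletes floxed p53 in cells the virus reaches, and Adeno-GFP is the control virus. The labels do not give which liver cells were infected, and they do not say that the 3 arrays of a group are separate animals. P-values therefore measure the spread between these arrays, which may be technical. Trp53 itself was not analysed here, so deletion was not checked on the arrays.

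ATF4 is a transcription factor that cells make in larger amounts when kinases phosphorylate the translation factor eIF2, as happens under ER stress or amino acid shortage. Its control is largely at the level of translation, so the Atf4 transcript need not follow the protein. Its targets include genes of amino acid synthesis and the stress regulators Ddit3, Atf3 and Trib3. The unfolded protein response also acts through IRE1, which splices Xbp1 RNA, and through ATF6, and these raise ER chaperones such as Hspa5. The liver secretes most plasma proteins, and its hepatocytes are rich in ER.

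All values are log2 expression levels made by RMA, and a difference of 1 is a doubling. The 9 hepatocyte marker genes averaged 12.40 to 12.60 on every array, with albumin (Alb) at 13.22 to 13.36. The 7 measured pancreatic acinar markers averaged 5.43 to 5.68, under the array medians of 6.26 to 6.33. Within groups, array pairs had Pearson r of 0.991 to 0.994. The values are not comparable between genes as amounts of RNA, because probe sets differ in brightness. Among the 10 genes, the mean of Trib3, 6.20, lay under the lowest array median, so it may not exceed background.

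Of the 10 genes, 2 fell with fasting. Sec61b and Ero1b, which act in the entry and the oxidative folding of proteins in the ER, were lower in fasted than in fed livers. The stress regulators Atf4, Atf3 and Ddit3, the ATF4 targets Trib3, Asns and Chac1, the chaperone Hspa5 and Xbp1 did not pass the test with fasting. A gene is called at an adjusted p under 0.05 (limma, Benjamini-Hochberg over all genes). In Adeno-Cre livers 0 of 10 were called, where 2.67% of all genes were. In Adeno-GFP livers 2 of 10 were called, where 3.07% of all genes were. Averaged over the injections, the 2 called genes were again Sec61b and Ero1b, where 8.34% of all genes were called. An unadjusted p under 0.05 was reached by 2 of 10 in Adeno-Cre livers, 4 in Adeno-GFP livers and 6 on average, against 3542, 3698 and 4852 of the 22180 genes. The median change of the 10 genes was -0.10 in Adeno-Cre livers, -0.16 in Adeno-GFP livers and -0.12 on average, against -0.00, 0.01 and 0.01 for all genes.

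**Figure D1:**
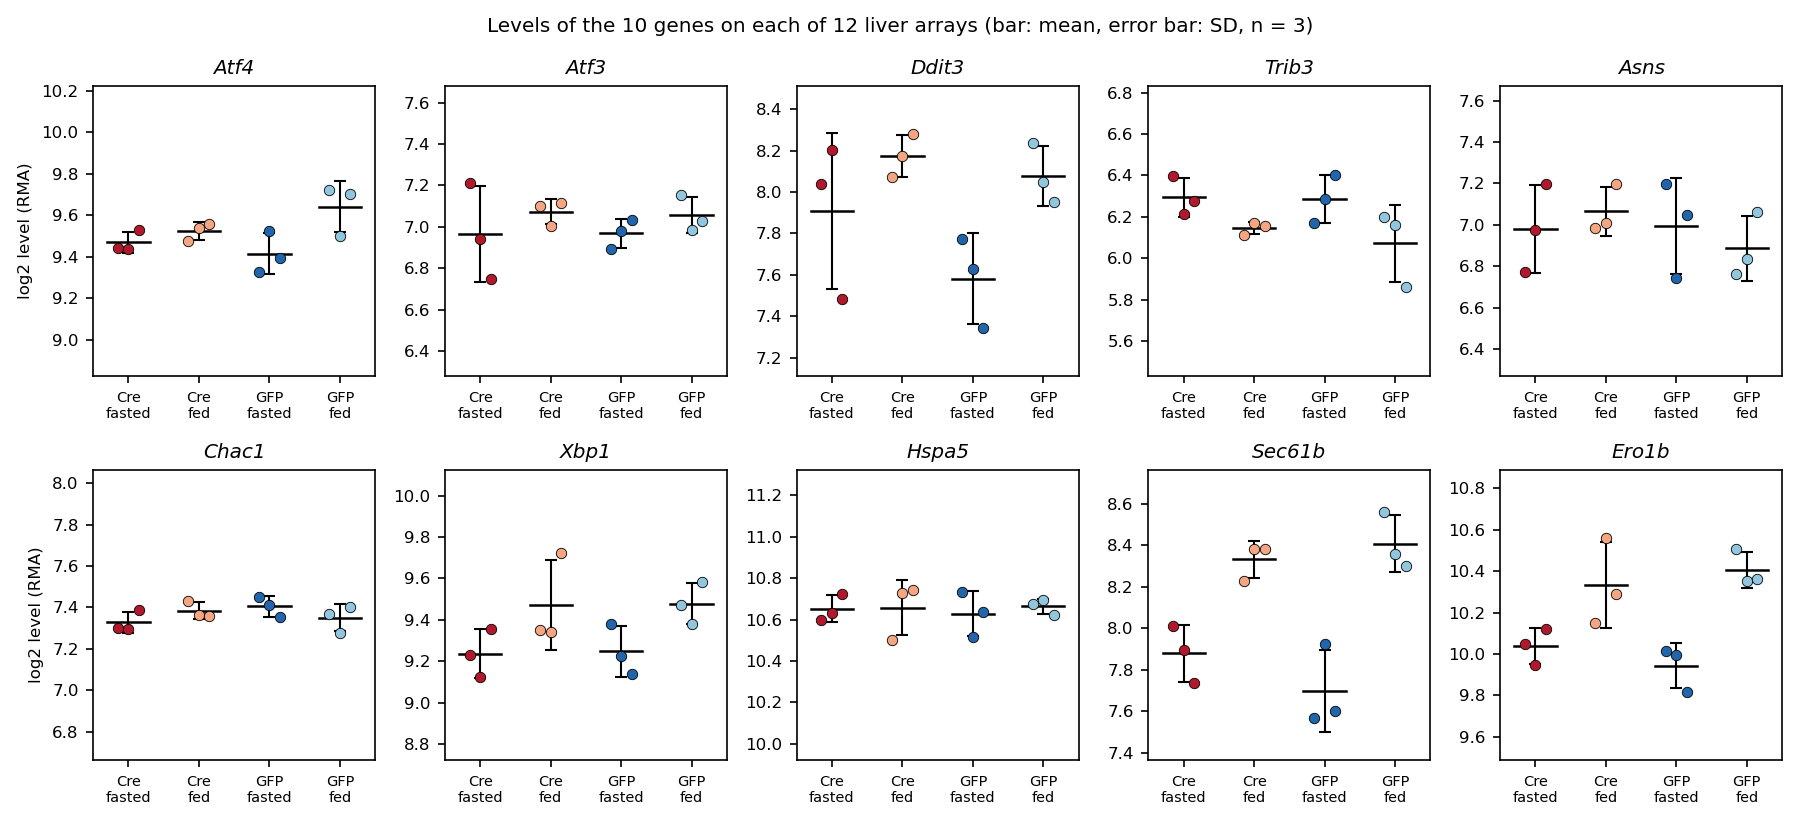
Log2 expression level of each of the 10 genes on each of the 12 arrays (points), with group means (lines) and SD (error bars, n = 3), for Adeno-Cre fasted, Adeno-Cre fed, Adeno-GFP fasted and Adeno-GFP fed livers. Sec61b and Ero1b lie lower in fasted than in fed livers after both injections, while Chac1 spans 0.17 log2 units over all arrays.

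Sec61b encodes the beta subunit of the SEC61 channel, through which growing secretory proteins enter the ER. In Adeno-Cre livers it was at 8.01, 7.89 and 7.73 when fasted, against 8.23, 8.38 and 8.39 when fed. In Adeno-GFP livers it was at 7.57, 7.92 and 7.60 when fasted, against 8.56, 8.36 and 8.30 when fed. Fasted arrays lay below all fed arrays after each injection, with no overlap. Fasted and fed arrays did not overlap for 3 of the 10 members after Adeno-Cre and 4 after Adeno-GFP. Over all genes the shares were 21.1% and 22.2%. After Adeno-Cre these members were Sec61b and Ero1b, lower when fasted, and Trib3, higher when fasted. After Adeno-GFP they were Sec61b, Ero1b, Ddit3 and Xbp1, all lower when fasted. In Adeno-Cre livers the means of Sec61b were 7.88 ± 0.14 fasted and 8.33 ± 0.09 fed (SD, n = 3 each), a log2 difference of -0.45 (95% interval -0.70 to -0.21). Its adjusted p of 0.0576 by limma misses the threshold. It passes with dim genes left out (0.0265), with a trended robust variance prior (0.0276) and without Adeno-GFP fasted array 2 (0.0343), and in no other alternative. In Adeno-GFP livers the means were 7.70 ± 0.20 fasted and 8.41 ± 0.14 fed (SD, n = 3 each), a difference of -0.71 (SE 0.11), or 1.64-fold lower, with an adjusted p of 0.00620 by limma. Averaged over injections Sec61b fell by 0.58 (SE 0.08, adjusted p 0.00106, limma). Its other probe set, which is dimmer with a mean of 5.73, gave -0.39 on average, with an adjusted p of 0.101 (limma, over all probe sets), which did not pass alone, and the mean of both probe sets passed at -0.48. Because these are bulk tissue arrays, fewer cells of a type and less RNA per cell cannot be told apart.

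Ero1b encodes an ER oxidase that passes oxidising power to protein disulfide isomerases, which form disulfide bonds. In Adeno-Cre livers it was at 10.05, 9.95 and 10.12 when fasted, against 10.15, 10.56 and 10.29 when fed. In Adeno-GFP livers it was at 10.02, 10.00 and 9.82 when fasted, against 10.51, 10.35 and 10.36 when fed. Fasted arrays again lay below fed arrays after each injection, by a narrow gap after Adeno-Cre. The difference was -0.29 (adjusted p 0.186, limma) in Adeno-Cre livers, -0.46 (SE 0.11, adjusted p 0.0359, limma) in Adeno-GFP livers and -0.38 (SE 0.07, adjusted p 0.00865, limma) on average. The Adeno-GFP call is fragile: it was lost without any 1 of the 6 Adeno-GFP arrays, without Adeno-Cre fasted array 1 or without Adeno-Cre fed array 3, at adjusted p-values up to 0.129 (limma), with changes of -0.50 to -0.40. The average kept its call without each of the 12 arrays.

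Promoter sequences of the 2 called genes are shown because their transcripts fell together, and the capitals mark a match to the ER stress element (ERSE), a known target of the ATF6 pathway made of CCAAT and CCACG 9 bases apart. The sequences are RefSeq's on build GRCm38.p6, from 250 bases before to 50 bases after the annotated start. The Ero1b promoter holds an ERSE on the other strand. The Sec61b promoter holds none, and neither holds the other motifs searched.
Sec61b promoter, chr4:47474411-47474710, plus strand: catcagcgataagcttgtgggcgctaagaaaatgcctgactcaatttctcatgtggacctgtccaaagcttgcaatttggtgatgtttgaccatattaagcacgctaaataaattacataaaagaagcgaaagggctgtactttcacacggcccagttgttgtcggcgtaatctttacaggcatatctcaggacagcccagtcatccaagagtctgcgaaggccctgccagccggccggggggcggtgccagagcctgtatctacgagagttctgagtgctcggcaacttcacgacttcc
Ero1b promoter, chr13:12565633-12565932, plus strand: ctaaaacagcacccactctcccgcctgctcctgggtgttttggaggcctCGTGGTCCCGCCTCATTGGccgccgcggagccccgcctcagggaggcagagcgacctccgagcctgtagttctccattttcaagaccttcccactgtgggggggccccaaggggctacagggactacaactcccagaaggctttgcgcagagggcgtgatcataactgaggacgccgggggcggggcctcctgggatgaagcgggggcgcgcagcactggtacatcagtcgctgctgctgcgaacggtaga

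The stress regulators varied by different amounts. Atf4, the transcription factor of the pathway, was at 9.44, 9.44 and 9.53 in fasted and 9.48, 9.54 and 9.56 in fed Adeno-Cre livers. In Adeno-GFP livers Atf4 was at 9.33, 9.52 and 9.39 in fasted and 9.72, 9.50 and 9.70 in fed mice. Its average difference was -0.14 (95% interval -0.27 to -0.01), with an adjusted p of 0.180 (limma), and fasted and fed arrays overlapped. Ddit3, which encodes CHOP, a factor linked to death of stressed cells, was at 8.04, 8.20 and 7.48 in fasted and 8.07, 8.17 and 8.28 in fed Adeno-Cre livers, with fasted array 3 below the other 2. In Adeno-GFP livers Ddit3 was at 7.77, 7.63 and 7.35 in fasted and 8.24, 8.05 and 7.95 in fed mice, with no overlap. Its average difference was -0.38 (SE 0.12) with an adjusted p of 0.0701 (limma). This missed the threshold but passed it, at 0.0363 and a change of -0.46, without Adeno-Cre fasted array 2, at 0.0392 with dim genes left out and at 0.0495 with the trended prior. Without Adeno-Cre fasted array 3, Ddit3 also passed in Adeno-GFP livers, at 0.0464 (limma). In all other alternatives, neither the average nor the Adeno-GFP change of Ddit3 was called.

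Xbp1, whose product drives ER expansion, was at 9.23, 9.12 and 9.36 in fasted and 9.35, 9.34 and 9.72 in fed Adeno-Cre livers, which overlapped. In Adeno-GFP livers Xbp1 was at 9.38, 9.22 and 9.14 in fasted and 9.47, 9.38 and 9.58 in fed mice. The average difference was -0.23 (95% interval -0.41 to -0.06, adjusted p 0.106, limma). Splicing of Xbp1 was not analysed here. Atf3, a stress-induced repressor, changed by -0.10 on average (adjusted p 0.512, limma), and its arrays ran from 6.75 to 7.21 with overlap of fasted and fed.

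None of the member targets Trib3, Asns and Chac1 was called. Trib3, a pseudokinase that restrains AKT, was at 6.40, 6.21 and 6.28 in fasted and 6.11, 6.17 and 6.16 in fed Adeno-Cre livers. In Adeno-GFP livers Trib3 was at 6.17, 6.29 and 6.40 in fasted and 6.20, 6.16 and 5.86 in fed mice. Its average difference was 0.18 (95% interval 0.03 to 0.33, adjusted p 0.152, limma), at levels near the array medians. Asns, asparagine synthetase, had a difference of 0.01 (95% interval -0.20 to 0.22) on average, with arrays from 6.74 to 7.20. Chac1, which breaks down glutathione, had a difference of -0.00 (95% interval -0.11 to 0.11). Hspa5, the chaperone BiP, had a difference of -0.02 (95% interval -0.15 to 0.11), with arrays from 10.50 to 10.74. The spread within groups was lowest for Chac1, at an SD of 0.05, and highest for Ddit3, at 0.24, against a median of 0.135 over all genes.

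**Figure D2:**
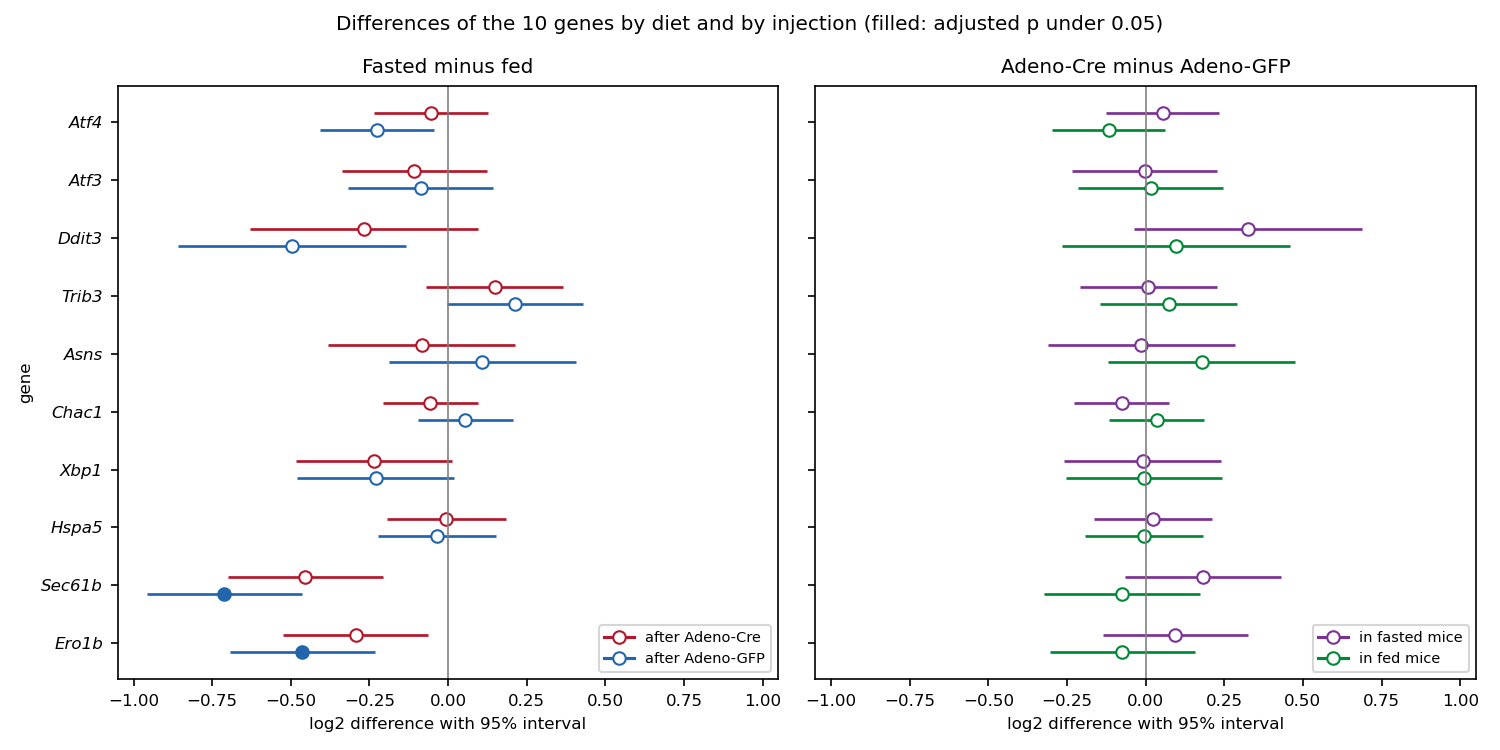
Log2 difference of each of the 10 genes (points) with its 95% interval (bars), fasted minus fed after each injection on the left and Adeno-Cre minus Adeno-GFP in each diet on the right. Filled points, Sec61b and Ero1b after Adeno-GFP, have an adjusted p under 0.05, and every interval on the right crosses 0.

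The windows below show where the motif of the ATF4 response, the CARE core (TGATGNAA, searched on both strands), the ERSE, or TGACGTG, a core of a second unfolded protein response element, occurred in the promoters of the other members. Capitals mark the match. Among 32851 RefSeq promoters of the same length, 3.97% hold a CARE core, 0.119% an ERSE and 2.01% a TGACGTG. Of the 10 members, Asns, Atf3, Chac1 and Trib3 hold a CARE core. Hspa5 and Ero1b, whose promoter is shown above, hold an ERSE, and Hspa5 also holds a TGACGTG. The CARE core of Trib3 lies after the annotated start, and no match in the other promoters says only that the letters are not in these windows. A match is a description and not evidence of binding.
Asns CARE core window, chr6:7693214-7693243, gene on the minus strand: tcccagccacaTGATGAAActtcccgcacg
Atf3 CARE core window, chr1:191183425-191183454, gene on the minus strand: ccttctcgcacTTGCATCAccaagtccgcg
Chac1 CARE core window, chr2:119351038-119351067, gene on the plus strand: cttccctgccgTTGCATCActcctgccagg
Trib3 CARE core window, chr2:152344028-152344057, gene on the minus strand: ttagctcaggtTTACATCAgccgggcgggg
Hspa5 ERSE window, chr2:34772020-34772048, gene on the plus strand: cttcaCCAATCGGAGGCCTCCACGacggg
Hspa5 TGACGTG window, chr2:34771922-34771950, gene on the plus strand: gggcgtagcaaTGACGTGagttgcggagg

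**Figure D3:**
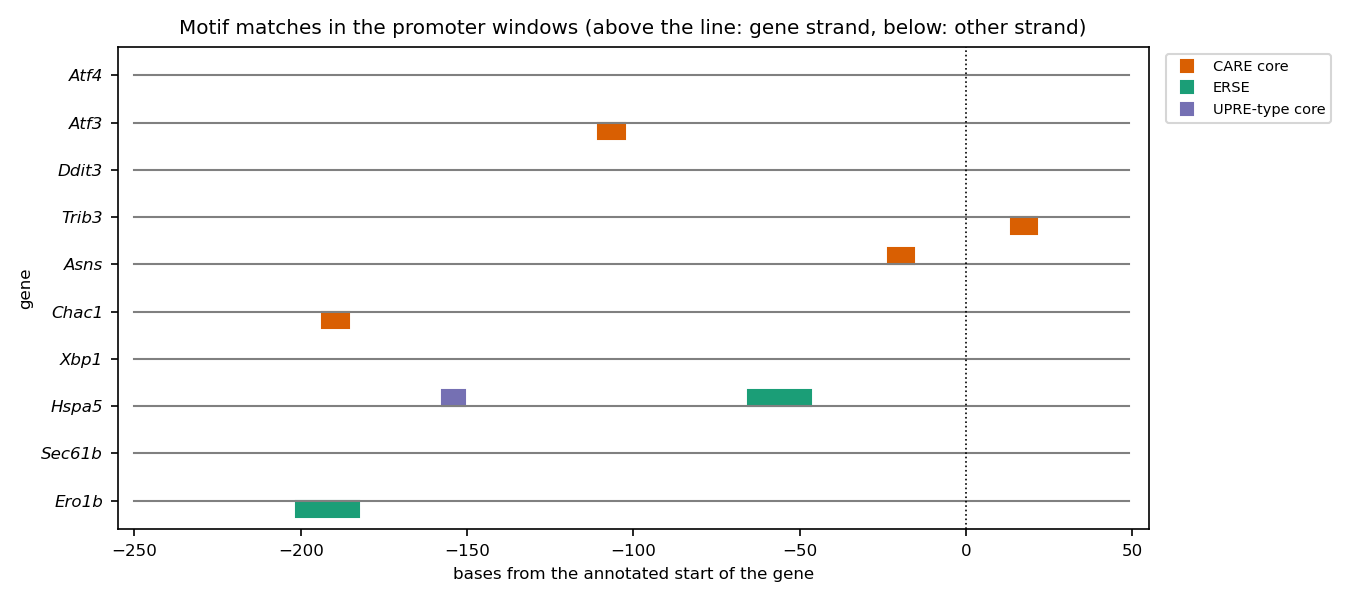
Position of each motif match in the promoters of the 10 genes, in bases from the annotated start of the gene (0), with colours for the CARE core, the ERSE and TGACGTG (UPRE-type core). Matches lie between positions -201 and 21, and Atf4, Ddit3, Xbp1 and Sec61b have none.

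Adeno-Cre livers were compared with Adeno-GFP livers, and no member was called. Every group carried the floxed alleles, so p53 loss cannot be told apart from effects of Cre, of GFP or of the virus preparation. The counts called were 0 of 10 in fasted mice, where 2.75% of all genes were called, 0 of 10 in fed mice, where 1.49% were, and 0 of 10 on average, where 5.59% were. No member had an unadjusted p under 0.05 in any of these comparisons. Of the 22180 genes, 3711 did in fasted mice, 2742 in fed mice and 4333 on average. In fasted mice the differences ran from -0.08 to 0.33, in fed mice from -0.12 to 0.18 and on average from -0.03 to 0.21. The 95% intervals reached from -0.31 to 0.69 in fasted mice, from -0.32 to 0.48 in fed mice and from -0.18 to 0.47 on average. The largest difference in fasted mice was for Ddit3, at 0.33 (95% interval -0.04 to 0.69, adjusted p 0.353, limma). Without Adeno-Cre fasted array 3 it was 0.54, with an adjusted p of 0.0495 (limma), and it stayed uncalled in all other alternatives. Atf4 differed by -0.03 on average (95% interval -0.16 to 0.10) and Hspa5 by 0.01 (95% interval -0.12 to 0.14), so for both the interval spans small changes on either side of 0. The dimmer probe set of Sec61b gave a difference of -0.31 on average, with an adjusted p of 0.233 (limma), the brighter one gave 0.05, and the mean of both gave -0.13. After Adeno-Cre, 3 of 10 stellate cell markers and 1 of 5 cholangiocyte markers fell and 1 of 9 T and NK cell markers rose on average. The mean of the 9 T and NK cell markers ran from 6.35 to 6.61 in Adeno-Cre fed livers and from 6.21 to 6.27 in Adeno-GFP fed livers. Stellate cell markers averaged 8.29 to 8.45 in Adeno-Cre fed and 8.57 to 8.61 in Adeno-GFP fed livers, and sinusoidal endothelial markers 8.51 to 8.99 in Adeno-Cre fed and 9.06 to 9.13 in Adeno-GFP fed livers. Averaged over diets, the difference was below 0 for 10 of 10 stellate, 10 of 10 endothelial and 9 of 10 Kupffer cell markers. It was below 0 for 7 of 9 hepatocyte, 4 of 5 cholangiocyte and 7 of 7 B and plasma cell markers. For neutrophils it was 5 of 8 and for T and NK cells 3 of 9, with a median of -0.03 over all genes. In each group only 1 to 3 of the 7 B and plasma cell, 2 of the 5 cholangiocyte and 1 of the 8 neutrophil markers exceeded the lowest array median. The part of these cell types in the members' values was not tested.

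The response to fasting was compared between injections by the interaction, which asks whether the fasting difference after Adeno-Cre exceeds that after Adeno-GFP. None of the 10 genes was called, where 0.00451% of all genes (1 gene) were. None had an unadjusted p under 0.05 (limma), against 1676 of the 22180 genes. The interaction was 0.26 for Sec61b (95% interval -0.09 to 0.61, adjusted p 0.746) and 0.17 for Ero1b (95% interval -0.16 to 0.50, adjusted p 0.821, limma). The calls in Adeno-GFP livers and not in Adeno-Cre livers are thus not shown to differ between the injections.

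Related genes of the pathway were described by 8 lists with 128 measured genes. With fasting, averaged over injections, 8.34% of all genes were called. Among 13 ATF4 partners and stress-induced regulators, 2 rose and 0 fell, with a list median of 0.14 against 0.01 for all genes. They were Vldlr, a lipoprotein receptor that ATF4 is known to raise, at 0.72 (adjusted p 0.0128; 1.12 in Adeno-Cre and 0.32 in Adeno-GFP livers, interaction adjusted p 0.621), and Atf5, an ATF4-related factor, at 0.27 (adjusted p 0.0177). Of 17 genes of amino acid synthesis and transport, 2 rose: Cth, which makes cysteine, at 0.74 (adjusted p 0.000498), and Gpt2, an alanine aminotransferase, at 0.52 (adjusted p 0.00203). Cth was at 11.82, 11.48 and 11.68 in fasted and 10.87, 11.00 and 10.63 in fed Adeno-Cre livers, and at 12.07, 11.90 and 11.93 in fasted and 11.42, 11.08 and 11.44 in fed Adeno-GFP livers, with no overlap within either injection. These and the other p-values of the lists are limma's, adjusted over all genes.

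Among 11 sensors and processing genes of the unfolded protein response, Ern1 fell and Creb3l3 rose. Ern1, which encodes the Xbp1-splicing sensor IRE1, fell by 0.57 (adjusted p 0.000767), at 8.21, 8.35 and 8.38 in fasted and 8.97, 8.99 and 8.73 in fed Adeno-Cre livers and at 8.33, 8.51 and 8.17 in fasted and 8.79, 8.90 and 9.00 in fed Adeno-GFP livers. Creb3l3, a liver transcription factor of the ER membrane, rose by 0.28 (adjusted p 0.00695). Of 18 tRNA synthetases, Cars, for cysteine, fell by 0.40 (adjusted p 0.00255), and of 13 genes of eIF2 control, Eif2ak2, the double-stranded RNA kinase PKR, fell by 0.49 (adjusted p 0.0118). Eif2ak2 was at 9.36, 9.18 and 8.96 in fasted and 10.34, 9.88 and 9.94 in fed Adeno-Cre livers, and at 9.11, 8.78 and 9.09 in fasted and 8.92, 9.25 and 9.11 in fed Adeno-GFP livers. Its fasting difference was -0.88 after Adeno-Cre and -0.10 after Adeno-GFP, with an interaction adjusted p of 0.538.

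The genes of the folding machinery did not move one way. Of 18 chaperones and oxidoreductases, 2 rose and 2 fell. Calr, a lectin chaperone, rose by 0.40 (adjusted p 0.00998) and Dnajb11, a BiP cochaperone, by 0.24 (adjusted p 0.0366), while Ero1a, the paralog of Ero1b, fell by 0.22 (adjusted p 0.0239) and Erp44 by 0.22 (adjusted p 0.0326). In Sec61b's own group, of 21 genes of the translocon and signal peptide handling, 3 fell and 0 rose, with a list median of -0.07. They were Srprb, a subunit of the receptor for the signal recognition particle, at -0.25 (adjusted p 0.0440), Ssr3 of the translocon-associated complex at -0.19 (adjusted p 0.0491) and Spcs3 of the signal peptidase at -0.21 (adjusted p 0.0491). Leaving out any 1 array reduced these 3 calls to 0 or 1, and leaving out any of 9 arrays, all but Adeno-GFP fasted arrays 1 and 2 and Adeno-GFP fed array 3, reduced the 4 calls of the chaperone list to 1 or 2. Of 17 genes of ER-associated degradation, Os9 rose by 0.28 (adjusted p 0.0106), Edem1 fell by 0.31 (adjusted p 0.00573) and Derl2 fell by 0.21 (adjusted p 0.0427), a call that Derl2 kept without 2 of the 12 arrays taken singly. Over the same comparison, 2 of 9 hepatocyte markers rose. Markers that fell were 3 of 10 for stellate cells, 1 of 10 for sinusoidal endothelial cells, 1 of 9 for T and NK cells and 1 of 7 for B and plasma cells, and the part of these in the members' values was not tested.

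**Figure D4:**
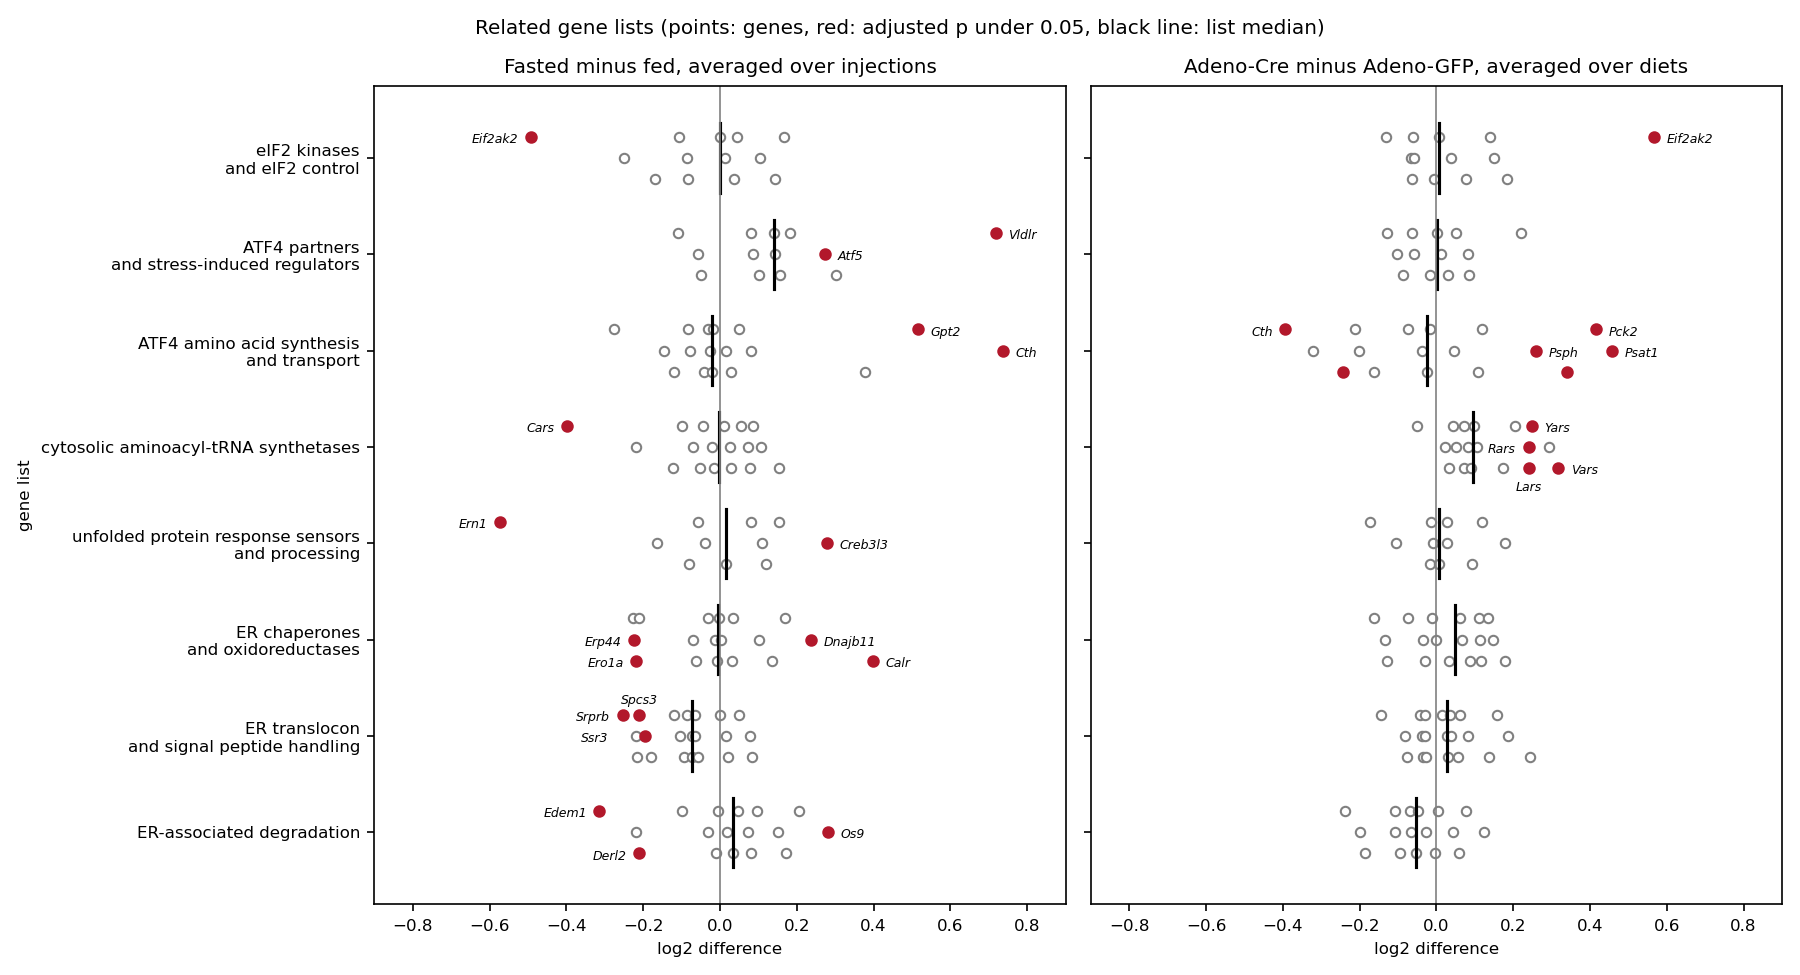
Log2 difference of each gene of 8 related lists (points), fasted minus fed on the left and Adeno-Cre minus Adeno-GFP on the right, both averaged. Red points have an adjusted p under 0.05, labels name those described in the text, and black lines are list medians.

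After Adeno-Cre, averaged over diets, calls were found in amino acid genes, tRNA synthetases and Eif2ak2. Over all genes 5.59% were called, 788 higher and 451 lower. Of 17 genes of amino acid synthesis and transport 4 rose and 2 fell, and of 18 synthetases 4 rose and 0 fell, with a list median of 0.09 against -0.03 for all genes. Psat1, of serine synthesis, was 0.46 higher (adjusted p 0.00272), at 6.58, 6.80 and 6.98 in fasted and 6.83, 6.96 and 6.97 in fed Adeno-Cre livers, against 6.51, 6.29 and 6.33 in fasted and 6.43, 6.35 and 6.46 in fed Adeno-GFP livers, with no overlap of the injections and with the Adeno-GFP levels near the array medians. Pck2, of mitochondrial gluconeogenesis, was 0.42 higher (adjusted p 0.0212), Psph, of serine synthesis, 0.26 (adjusted p 0.0336), and Cth fell by 0.39 (adjusted p 0.0238). The synthetases called were Rars at 0.24 (adjusted p 0.0127), Vars at 0.32 (adjusted p 0.0239), Lars at 0.24 (adjusted p 0.0354) and Yars at 0.25 (adjusted p 0.0379). Eif2ak2 was 0.57 higher on average (adjusted p 0.00653), with a difference of 0.18 in fasted mice (adjusted p 0.586) and of 0.96 in fed mice (adjusted p 0.0128). Without single arrays the 6 amino acid calls fell to 1 (Adeno-GFP fed array 1 or 3), 2 (Adeno-Cre fasted array 2 or Adeno-Cre fed array 3) or 3 (Adeno-Cre fasted array 1, Adeno-GFP fasted array 1 or 2). The 4 synthetase calls fell to 1 (Adeno-Cre fasted array 2, Adeno-GFP fasted array 2, Adeno-GFP fed array 1 or 3) or 2 (Adeno-Cre fed array 2 or 3). Psat1, Rars and Eif2ak2 kept their calls without each of the 12 arrays. Chaperones, the translocon and ER-associated degradation had 0 called genes each, with 1 translocon gene called without Adeno-Cre fasted array 1, Adeno-Cre fasted array 3 or Adeno-Cre fed array 1. Without Adeno-GFP fasted array 3, 1 gene of ER-associated degradation was called.

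For the called members Sec61b and Ero1b, and for Ddit3, the uncalled member with the next lowest adjusted p, the genes whose levels followed them most closely over the 12 arrays are given by Pearson r, as a description. For Sec61b they were Ugt2b36 (0.97), Aadac (0.97) and Nhej1 (0.96), and for Ero1b they were Ciao2b (0.93), Adap1 (0.92) and Ero1a (0.91). For Ddit3 they were Bet1 (0.96), Ssr1 (0.94) and Mrps22 (0.93). All points share the 4 groups and their arrays: after group means were removed, r was 0.94, 0.75 and 0.69 for the genes beside Sec61b, 0.71, 0.86 and 0.65 for those beside Ero1b and 0.95, 0.92 and 0.82 for those beside Ddit3. Sec61b and Ero1b had r = 0.87 over the arrays and 0.35 within groups. The mean of Adap1, 5.65, lies under the array medians.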

How the data were processed

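Liver RNA was hybridised to 12 Affymetrix arrays, 3 a group, per the labels' protocols. The authors deposited log2 levels for each probe set, computed with RMA (per the submitters' processing notes). No software version or genome build is stated there. RMA makes array distributions alike and compresses low values, and no detection calls were used. Of 41345 probe sets, 23521 name exactly 1 gene, 1814 name several and 16010 were not listed. RefSeq held the Entrez gene identifiers of 23328 of the probe sets that name 1 gene, and 0 symbols needed updating. Where several probe sets name a gene, that with the highest mean was kept, which left 22180 genes. All arrays were fitted with a mean per group in limma 3.58.1 (R 4.3.3), with eBayes and Benjamini-Hochberg adjustment per comparison at 0.05, tested on simulated data. The text names all 10 members, up to 4 genes per list and comparison by smallest p, and the 3 genes most like a member. Members and lists were chosen with earlier results of these data known. Alternatives changed the filter on dim genes, normalization, replicate block, samples fitted, variance prior, probe sets and arrays.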

Additional observations from a re-analysis of the deposited data

How the results depend on the processing

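Sec61b kept its call in Adeno-GFP livers in all 19 alternatives, with changes of -0.82 to -0.61, and Sec61b and Ero1b both kept their averaged calls in all 18. Where all probe sets were tested, Sec61b was still read from its brighter probe set. The dimmer one gave -0.51 in Adeno-GFP livers in that fit and was not called (adjusted p 0.203, limma). The count of members called in Adeno-GFP livers, 2, was 1 with quantile normalization, with the replicate block and with all probe sets tested, and 1 to 3 when single arrays were left out (3 without Adeno-Cre fasted array 3). In Adeno-Cre livers the count, 0, was 1 with dim genes left out and 1 with the trended robust prior, and 0 to 1 when single arrays were left out. For Adeno-Cre against Adeno-GFP in fasted mice it was 0 to 1 when single arrays were left out. None of the 4 called member changes or the 40 called list changes named turned its sign. Of 66 uncalled member changes, 30 turned sign in some alternative, none larger than 0.18, among them the averaged fasting differences of Asns and Chac1 and the averaged Adeno-Cre difference of Sec61b. An uncalled change that stays uncalled was compared by size only. The replicate numbers were not shown to pair the arrays, though these values cannot settle whether same-numbered arrays share a batch. After group means were removed, the deviations of same-numbered arrays correlated at -0.091 to 0.147 (median 0.013). Those of other pairs between groups correlated at -0.179 to 0.129 (median -0.016). By these deviations, 6 of 12 arrays correlated best with an array of their own number. The replicate block is therefore a check only.

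Counts over all genes moved too. With only the groups compared fitted, 212 and 394 genes were called for fasting after Adeno-Cre and Adeno-GFP, and 320 and 145 for Adeno-Cre in fasted and fed mice, against 592, 682, 609 and 331 with all arrays. With dim genes left out they were 983, 1091, 918 and 555, and with the trended prior 935, 1038, 939 and 539. Testing all 41345 probe sets, many of them tied to no gene, called 332, 388 and 91 probe sets for fasting after Adeno-Cre and Adeno-GFP and for Adeno-Cre in fed mice. The single interaction call was lost with all probe sets, quantile normalization or the block. When single arrays were left out, 1 gene was called without Adeno-GFP fasted array 3 or Adeno-GFP fed array 3. Without any other array 0 were. Leaving out 1 array moved the counts to as low as 207 (without Adeno-Cre fasted array 1), 275 (Adeno-GFP fed array 2), 355 (Adeno-Cre fasted array 2) and 31 (Adeno-GFP fed array 3). In the same order, they rose to as high as 713, 720 and 800 (each without Adeno-Cre fasted array 3) and 362 (Adeno-GFP fasted array 2). The causes were not tested. Without scanner files, signal over background limits the dim genes, Trib3 and the second Sec61b probe set among them.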

Other observations

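Promoter matches were counted in the related lists as well. The CARE core was found in 4 of 11 genes of the tRNA synthetases with a promoter, 4 of 11 ATF4 partners and 3 of 13 genes of amino acid synthesis, and ERSE in 6 of 15 chaperones and oxidoreductases, against 0 of 15 genes of the translocon. The interaction was above 0 for 19 of 21 translocon genes, with a median of 0.11 against -0.00 for all genes, and none was called. This was the most one-sided of the 8 lists. It was above 0 for 13 of 18 chaperones and oxidoreductases, 12 of 18 synthetases and 10 of 17 genes of ER-associated degradation. Lower shares were 8 of 17 amino acid genes and 6 of 13 of eIF2 control. For ATF4 partners it was 5 of 13 and for sensors 4 of 11. Genes of a list share the same 12 arrays, so they are not independent.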
